A study of Mus musculus with 4 samples.

Results

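The constitutive proteasome genes are the genes of the Psma, Psmb, Psmc, Psmd, Psme, Psmf and Psmg families, which encode the subunits, regulators and assembly factors of the proteasome. Members were taken by symbol, as a Psm prefix followed by a letter from a to g and a digit, without the immunoproteasome genes Psmb8, Psmb9 and Psmb10 and without pseudogenes. This gave 46 of the 18193 genes on the arrays. Each gene was represented by the probe set with the highest mean level among its probe sets with exactly 1 gene symbol. The 46 genes had 99 such probe sets, and 26 genes had more than 1. Of the 46 symbols, Psmc3ip and Psme3ip1 meet the rule by their letters but name proteins that bind a subunit or an activator and are no proteasome subunits, so they are described apart. Psme2 had no probe set of its own.

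The proteasome degrades proteins tagged with ubiquitin. Its 20S core is a barrel of outer alpha rings and inner beta rings, with the proteolytic sites inside, and its 19S cap binds ubiquitin chains, removes them and feeds the unfolded protein into the core with a ring of ATPases. In immune cells, interferon-gamma induces Psmb8, Psmb9 and Psmb10, which replace the catalytic subunits Psmb5, Psmb6 and Psmb7 and change the peptides cut for MHC class I.

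RNA of CD11b+ splenocytes, spleen cells carrying the integrin alpha M chain of myeloid and some NK and B cells, was measured on 4 Affymetrix MOE430 2.0 arrays. The social threat group was 2 pools of mice put through repeated social threat and labelled HighThreat for their environment. The control group was 2 pools of control mice labelled LowThreat. Each pool held the RNA of 5 mice, so the spread between mice is not seen. The labels used here give no strain, age, sex or isolation method.

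Each array gave log2 expression of 45037 probe sets, and the array medians lay between 4.41 and 4.43. A level near that median cannot be told from background. In what follows a level is a log2 value, a difference is social threat minus control on the log2 scale, a mean is over 2 pools with its SD, and a gene is called, and is said to have risen or fallen, at a limma p under 0.05 after Benjamini-Hochberg adjustment over all probe sets. The pools of a group were closer to each other than to the other group: over all probe sets, the SD of the difference was 0.150 between the threat pools, 0.199 between the control pools and between 0.332 and 0.350 across groups. Over the 46 proteasome genes the same SDs were 0.066, 0.095 and 0.184 to 0.195. Itgam, which encodes CD11b, stood at 11.64 and 11.59 in the threat pools, against 10.47 and 11.01 in the control pools. The label's marker was thus present in all pools, and the control pools differed in it. Itgam also rose by 0.88 (SE 0.13, limma adjusted p = 0.0015), more than any of the 46 genes.

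The promoters of 4 members are printed to show the stretch before the start site of genes that differed in their response: Psmb5, a catalytic subunit that rose, Psmb6, a catalytic subunit that was not called, Psmd14, whose rise was the largest among the subunits, and Psme1, which fell. Each is the 250 bases before the RefSeq start, 5′ to 3′ on the gene's strand. Capitals mark each match to TGACNNNGC, the core of the antioxidant response element that the transcription factors NRF1 (Nfe2l1) and NRF2 (Nfe2l2) bind, or to CCAAT, on either strand.
Psmb5, GRCm38.p6, chr14:54617996-54618245, minus strand: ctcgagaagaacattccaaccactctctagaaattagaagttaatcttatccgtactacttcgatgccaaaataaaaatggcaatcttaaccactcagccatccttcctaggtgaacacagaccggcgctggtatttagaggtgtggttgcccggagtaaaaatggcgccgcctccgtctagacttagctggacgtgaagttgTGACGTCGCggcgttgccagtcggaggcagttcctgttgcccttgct
Psmb6, GRCm38.p6, chr11:70525107-70525356, plus strand: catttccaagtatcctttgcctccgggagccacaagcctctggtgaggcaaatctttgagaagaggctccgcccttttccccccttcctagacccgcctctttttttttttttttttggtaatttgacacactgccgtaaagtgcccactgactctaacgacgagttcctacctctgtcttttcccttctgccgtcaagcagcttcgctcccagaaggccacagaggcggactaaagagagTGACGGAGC
Psmd14, GRCm38.p6, chr2:61711444-61711693, plus strand: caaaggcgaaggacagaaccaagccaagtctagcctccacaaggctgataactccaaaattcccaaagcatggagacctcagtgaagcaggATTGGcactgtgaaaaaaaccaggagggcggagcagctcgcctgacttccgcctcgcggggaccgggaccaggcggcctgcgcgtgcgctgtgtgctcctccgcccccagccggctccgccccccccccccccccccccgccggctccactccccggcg
Psme1, GRCm38.p6, chr14:55578244-55578493, plus strand: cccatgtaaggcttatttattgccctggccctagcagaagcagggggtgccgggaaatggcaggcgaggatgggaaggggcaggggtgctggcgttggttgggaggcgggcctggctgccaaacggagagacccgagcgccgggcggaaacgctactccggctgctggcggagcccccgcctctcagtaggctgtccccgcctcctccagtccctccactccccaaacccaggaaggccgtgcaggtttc

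In Psmb5 the TGACNNNGC match began 47 bases before the start, and in Psmb6 it began 9 bases before it. Psmd14 held CCAAT on the opposite strand, and Psme1 held neither motif in this window. RefSeq promoters were found for 38 of the 46 genes. TGACNNNGC was present in 5 of these 38 (13.2%): Psmb5, Psmb6, Psmc6, Psmd9 and Psmd12. Of all 27025 genes with a RefSeq promoter, 11.5% held it. CCAAT was present in 15 of the 38 (39.5%), against 37.5% of all genes. No match of the 2 motifs overlapped another in the printed sequences. Of the 12 genes with a promoter that rose, 1 held TGACNNNGC (Psmb5) and 6 held CCAAT, and the shares over the members were close to those over all genes.

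Social threat was compared with control to ask whether the genes of the constitutive proteasome differed in CD11b+ spleen cells. Of the 46 genes, 14 rose (30.4%), 1 fell (2.2%) and 31 were not called. The differences were small: apart from Psmc3ip, the rises lay between 0.18 and 0.37, the largest being 1.29-fold for the lid deubiquitinase Psmd14, and Psme1, an interferon-inducible activator, fell by 0.28. Over all genes taken the same way, 9.4% were called higher and 11.7% lower, and over all probe sets 7.09% and 8.67%. Proteasome genes are brighter than most, and brighter genes are called more often, so the genes with a mean level between 7 and 12 are the closer background, a range chosen after the values were seen. Of the 6364 genes in that range, 18.1% were called higher and 22.3% lower. Of the 43 proteasome genes in it, 13 were called higher (30.2%) and 1 lower (2.3%).

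The median difference of the 46 genes was 0.09, and that of all genes was -0.02. Within the level range it was 0.09 for the proteasome genes and -0.03 for all genes. The median size of a difference, whatever its sign, was 0.12 for the proteasome genes in that range and 0.19 for all genes in it. Both threat pools stood above both control pools for 25 of the 46 genes and below them for 9, and the pools overlapped for 12. Over all genes, 26.1% stood above and 32.1% below, and in the level range 34.5% and 43.1%. The difference was above 0 for 32 of the 46 genes, against 46.3% of all genes and 44.9% of those in the level range.

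The count of rises changed with the test and with the threat pools used. It was 3 without the mean-variance trend in the test, 4 without threat pool 2 and 2 without threat pool 1, while leaving out a control pool gave 16 each. Psmd14 alone was called higher in all 12 other fits. It has 1 probe set, so the mean, the median and the brighter mean of probe sets reused its values and could not test it. Without the variance trend, the calls left were those of Psmd14, Psmd5 and Psmc3ip. Over the members the direction changed less than the call: 29 to 32 of the 44 or 46 present had a difference above 0 in the 12 other fits.

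**Figure D1:**
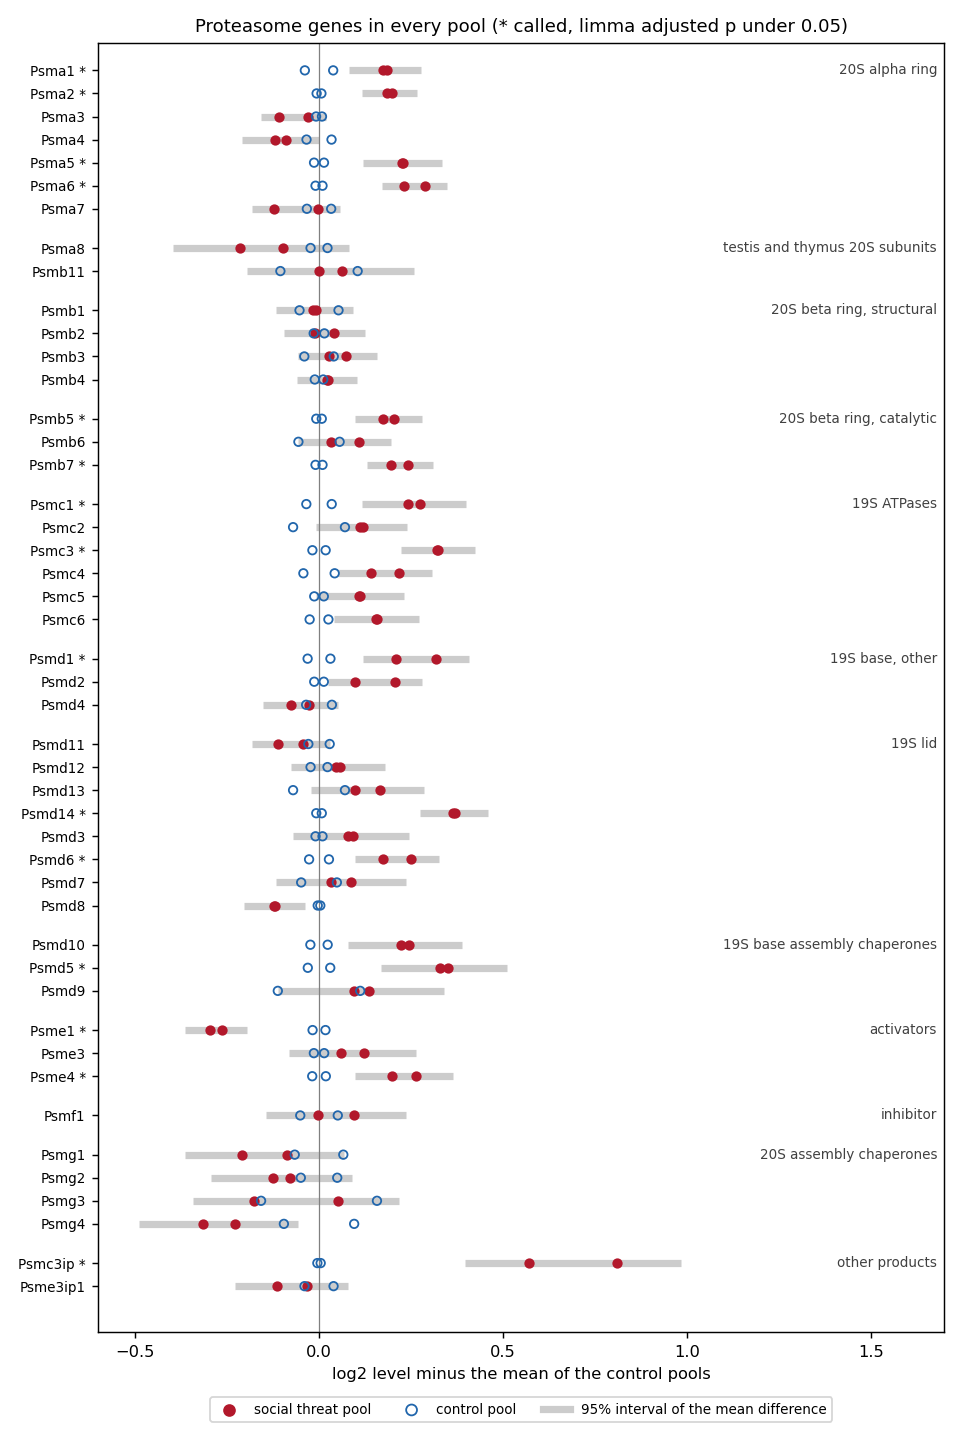
The level of each of the 46 genes in each pool minus its mean over the control pools (log2, horizontal axis), with genes as rows grouped by role, filled points for the 2 threat pools, open points for the 2 control pools and a bar for the 95% interval of the mean difference from limma. The points of Psmd14 and Psmc3 lie clear of their control pools, those of the structural beta subunits lie near 0, and the mean differences of the 4 core assembly chaperones lie left of 0.

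**Figure D2:**
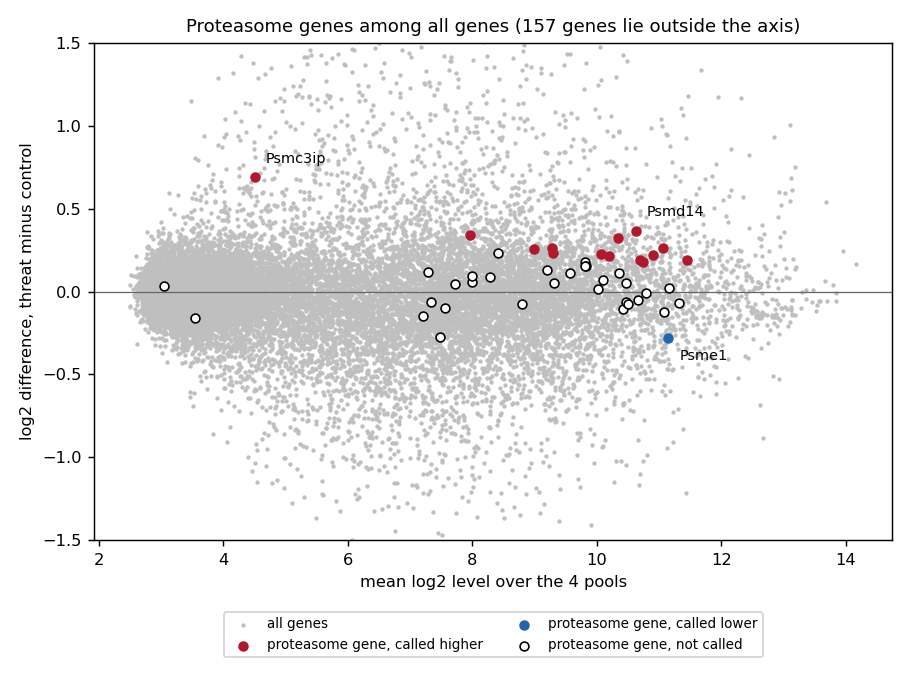
The difference, social threat minus control (log2, vertical axis), against the mean level over the 4 pools (log2, horizontal axis) for all 18193 genes in grey, except the 157 outside the vertical limits of 1.5, with the 46 proteasome genes as larger points. The proteasome genes lie in a narrow band around 0, between -0.28 and 0.37 except for Psmc3ip, whose level was near the array median.

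The alpha ring of the core closes the barrel and gates entry to it. Of its 7 measured subunits Psma1 to Psma7, 4 rose and none fell, with a median difference of 0.18. Each role holds few genes. Its counts stand beside 18.1% called higher and 22.3% lower among all genes with a level between 7 and 12. Psma6 had the largest rise, with 11.21 and 11.16 in the threat pools, against 10.92 and 10.93 in the control pools (difference 0.26, SE 0.04, limma adjusted p = 0.00156). Both threat pools lay above both control pools, and a further bright probe set of Psma6 rose by 0.22 (SE 0.04), but the mean of its 4 probe sets, 0.16, was not called. Psma2 stood at 11.55 and 11.53 in threat and at 11.35 and 11.34 in control, a rise of 0.19 (SE 0.03), and Psma5 and Psma1 rose by 0.23 (SE 0.05) and 0.18 (SE 0.04). A nearly as bright probe set of Psma5 differed by only 0.02 (SE 0.05), so its probe sets disagree. A dimmer probe set of Psma1, at 6.23 in threat and 6.37 in control, differed by -0.14 (SE 0.11) without a call. Psma1 and Psma5 lost their calls with the mean and the median of their probe sets, and Psma1 also with the mean of the brighter ones. Without the variance trend 0 subunits of the ring were called by limma, and 3 were higher at an unadjusted limma p under 0.05. Psma3, Psma4 and Psma7 were not called, with differences between -0.11 and -0.06, of which 1, that of Psma4, had an unadjusted p under 0.05. A dimmer second probe set of Psma3 differed by -0.40 (SE 0.13) without a call. Psma3 was called lower with the mean, the median and the brighter mean of its 2 probe sets. For 2 probe sets the mean and the median are the same values. Psma7 had the smallest difference of the ring, with 10.49 and 10.37 in threat, against 10.46 and 10.53 in control, and its groups overlapped.

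The structural beta subunits Psmb1 to Psmb4 carry no proteolytic site in mammals. None of the 4 was called by limma, 0 had an unadjusted p under 0.05, and their differences lay between -0.01 and 0.05. Psmb1 stood at 10.78 and 10.79 in the threat pools, inside the control pools' 10.85 and 10.75, and the 95% interval of its difference ran from -0.12 to 0.09. A second probe set of Psmb4, which read 10.80 ± 0.05 in threat and 10.62 ± 0.05 in control (SD, n = 2 each), was called higher by 0.18 (limma adjusted p = 0.0293), while the brighter one that represents the gene differed by 0.02. With the mean of its brighter probe sets Psmb4 was called higher. A second probe set of Psmb3, nearly as bright as the first, differed by 0.14 (SE 0.05) without a call, and its groups did not overlap.

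Of the 3 constitutive catalytic subunits, 2 rose. Psmb5, the chymotrypsin-like subunit, had 10.81 and 10.78 in the threat pools, against 10.60 and 10.61 in the control pools (difference 0.19, SE 0.04, limma adjusted p = 0.0117). Psmb7, the trypsin-like subunit, had 10.99 and 11.04 in threat and 10.80 and 10.78 in control (difference 0.22, SE 0.04, limma adjusted p = 0.00453). The groups did not overlap for either gene. Psmb6, the caspase-like subunit, had 10.17 and 10.10 in threat and 10.12 and 10.01 in control, which overlapped (difference 0.07, 95% interval -0.06 to 0.20). Psmb5 and Psmb7 each lost their call without the variance trend and without either threat pool. Their differences lay between 0.1735 and 0.2035 for Psmb5 and between 0.1965 and 0.2425 for Psmb7 over the alternatives.

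The immunoproteasome subunits, which are no members, differed the other way. Psmb8 fell by 0.29 (SE 0.04) and Psmb10 by 0.38 (SE 0.05), while Psmb9 differed by -0.10 (SE 0.05, limma adjusted p = 0.26). Psmb8 has 2 probe sets and Psmb10 has 1, whose values the mean and the median of probe sets leave unchanged. Psmb10 was called lower in all 12 other fits, while Psmb8 lost its call without the variance trend (limma adjusted p = 0.078) and with the median of its probe sets (-0.23, limma adjusted p = 0.0502). Each catalytic subunit was set against its immunoproteasome counterpart within an array, which shows unequal change and says nothing about the amounts, since probe sets differ in brightness. The log2 ratio of Psmb7 to Psmb10 was 1.03 and 1.03 in the threat pools, against 0.40 and 0.46 in the control pools, a difference of 0.60. The ratio of Psmb5 to Psmb8 was -0.10 and -0.07 in threat and -0.56 and -0.57 in control, a difference of 0.48. The ratio of Psmb6 to Psmb9 was -0.05 and -0.01 in threat and -0.15 and -0.25 in control, a difference of 0.17. Threat pools stood above control pools in all 3 ratios. The exact two-sided permutation p was 0.333 for each and 0.333 after adjustment over the 3, the smallest value that 2 against 2 pools allow.

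**Figure D3:**
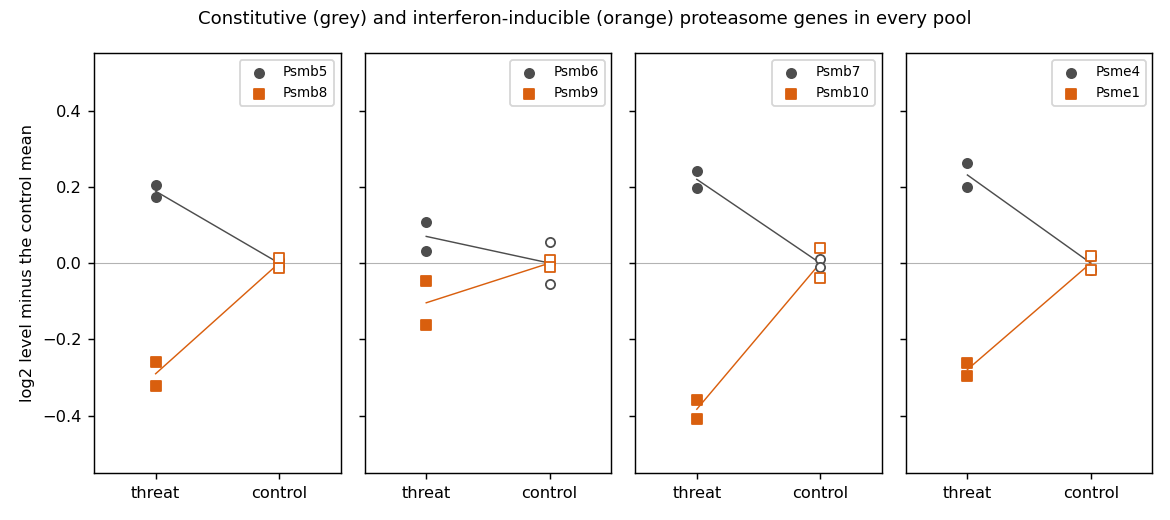
The level in each pool minus the mean of the gene's control pools (log2, vertical axis) for the 3 catalytic pairs and for the activators Psme4 and Psme1, with threat pools filled on the left of each panel, control pools open on the right and lines joining the group means. In the threat pools of the 3 catalytic pairs the constitutive genes in grey lie above the interferon-inducible genes in orange. The gap is smallest for Psmb6 and Psmb9. Psme4 and Psme1 are no such pair. They are the activators called higher and lower, so the gap between them follows from the choice.

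Tissue-restricted core subunits served as a check on what the arrays read. Psma8, an alpha subunit of the testis proteasome, was at 3.53 and 3.41 in threat and at 3.60 and 3.65 in control. Psmb11, the catalytic subunit of the thymus cortex, was at 3.03 and 3.10 in threat and at 2.93 and 3.14 in control. All these values lie below the array medians, where expression cannot be told from background, and neither gene was called.

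The ATPases Psmc1 to Psmc6 form the ring that unfolds substrates. All 6 had a positive difference, of 0.11 to 0.32, with both threat pools above both control pools for each, and 2 of them were called. Psmc3 had 10.50 and 10.51 in the threat pools, against 10.20 and 10.16 in the control pools (difference 0.32, SE 0.04, limma adjusted p = 0.000916). Psmc1 stood at 9.13 and 9.10 in threat and at 8.89 and 8.82 in control (difference 0.26, SE 0.06, limma adjusted p = 0.021). It lost its call with the mean and the median of its 2 probe sets. Without the variance trend 0 ATPases were called by limma, and 2 were higher at an unadjusted limma p under 0.05. Psmc5 had the smallest difference, with 9.63 and 9.63 in threat and 9.51 and 9.53 in control (0.11, 95% interval -0.01 to 0.23). A dimmer probe set of Psmc6 rose by 0.41 (SE 0.08) and one of Psmc2 by 0.16 (SE 0.05, limma adjusted p = 0.0493), while the probe sets that represent these genes differed by 0.16 and 0.11 and were not called.

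The rest of the base holds the scaffold subunits Psmd1 and Psmd2 and the ubiquitin receptor Psmd4. Psmd1 rose, with 9.47 and 9.36 in threat, against 9.19 and 9.12 in control (difference 0.26, SE 0.06, limma adjusted p = 0.0198). It lost its call without the variance trend (limma adjusted p = 0.121). Psmd2 differed by 0.15 (SE 0.06) without a call, with both threat pools above both control pools. Psmd4 had 10.66 and 10.61 in threat and 10.66 and 10.73 in control, a difference of -0.05 with overlapping groups.

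The lid holds 8 measured subunits, of which 2 rose (25.0%) and none fell. Among all genes with a level between 7 and 12, 18.1% were called higher and 22.3% lower. Psmd14, the metalloprotease that cuts ubiquitin chains from the substrate, had 10.81 and 10.81 in the threat pools, against 10.44 and 10.45 in the control pools (difference 0.37, SE 0.04, limma adjusted p = 0.000257). The pools of a group differed by at most 0.015. Psmd6 rose by 0.21 (SE 0.05), and its second probe set by 0.33 (SE 0.05). Psmd12 had the smallest difference, with 9.34 and 9.33 in threat and 9.31 and 9.26 in control (0.05, 95% interval -0.08 to 0.18). Psmd8 stood at 11.02 and 11.03 in threat and at 11.15 and 11.14 in control, a difference of -0.12 that missed the threshold (limma adjusted p = 0.0532). It has 1 probe set, which was called lower with dim probe sets left out. The fits of the mean, the median and the brighter mean of probe sets also called it lower. Psmd11 differed by -0.08. A dim probe set of Psmd7 fell by 0.52 (SE 0.12), while the brighter one that represents it differed by 0.06, so no direction is given for this gene. Psmd7 was called lower with the median and the brighter mean of its probe sets. Of the 53 further probe sets of the members, 18 had another call than the one that stands for the gene, 0 were called in the opposite direction, and 21 lay at or below the array medians. Dimmer probe sets of Psma1, Psma6 and Psmc1, between 2.86 and 6.57 on average, were not called either.

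Psmd5, Psmd9 and Psmd10 are chaperones that hold ATPase pairs while the base assembles and then leave it. Psmd5 rose, with 8.14 and 8.12 in threat, against 7.82 and 7.76 in control (difference 0.34, SE 0.08, limma adjusted p = 0.0141). Psmd10, also known as the oncoprotein gankyrin, had 8.55 and 8.52 in threat and 8.32 and 8.28 in control, and its difference of 0.23 lay at the edge of the threshold (limma adjusted p = 0.0501). Psmd9 had 7.33 and 7.37 in threat and 7.35 and 7.12 in control, and its control pools enclosed 1 threat pool (0.12, 95% interval -0.11 to 0.34). Its other 2 probe sets lay near or below the array medians, and the median of the 3 is 1 of them in every pool. That probe set was not called on its own (limma adjusted p = 0.0738). As the median, tested among 18193 genes, it was called lower (-0.39, limma adjusted p = 0.0346).

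Psmg1 to Psmg4 pair up to guide assembly of the alpha ring of the core. None of the 4 was called by limma, 1 had an unadjusted p under 0.05, and all 4 had a negative difference, of -0.27 to -0.06. Of the 14 core subunits Psma1 to Psma7 and Psmb1 to Psmb7, 6 rose. Psmg4 had 7.39 and 7.30 in threat and 7.71 and 7.52 in control (difference -0.27, 95% interval -0.49 to -0.06, limma adjusted p = 0.0939), with no overlap. Without control pool 2 the difference of Psmg4 was -0.37. The mean of its brighter probe sets is the same probe set alone, since the other lay at or below the array medians. With an unchanged difference it was called lower there, among 11036 genes tested (limma adjusted p = 0.0233). Psmg3 had 7.42 and 7.19 in threat and 7.53 and 7.21 in control, the widest spread between pools of a group among the 46 genes. These genes are dimmer than the subunits, and their standard errors, 0.08 to 0.12, exceed those of most subunits.

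The activators open the core without ubiquitin. Psme1, a subunit of the PA28 ring that interferon-gamma induces, was the only member that fell, with 11.03 and 10.99 in threat, against 11.27 and 11.31 in control (difference -0.28, SE 0.04, limma adjusted p = 0.000785). It lost its call without the variance trend (limma adjusted p = 0.0831). Its partner Psme2 was read only by a probe set also listed for Psme2b, chosen after its values were seen, which stood at 11.14 and 11.14 in threat and at 11.26 and 11.34 in control and fell by 0.16 (SE 0.04, limma adjusted p = 0.0266). Psme4, the nuclear activator PA200, had 9.45 and 9.38 in threat and 9.17 and 9.20 in control (difference 0.23, SE 0.06, limma adjusted p = 0.0254). A probe set of Psme4 of nearly the same brightness differed by 0.11 (SE 0.07), and none of its other 5 probe sets was called. Psme4 lost its call without the variance trend, without either threat pool and with the mean, the median or the brighter mean of its probe sets (0.11 to 0.12). Psme3, the nuclear PA28 subunit, had 8.002 and 8.066 in threat and 7.929 and 7.957 in control (0.09, 95% interval -0.08 to 0.26). A second probe set of Psme3 at a similar level differed by 0.25 (SE 0.08) without a call. The median of the 3 Psme3 probe sets is that same probe set in every pool. Tested among 18193 genes, that median was called higher (limma adjusted p = 0.0395). The inhibitor gene Psmf1, which encodes PI31, had 7.80 and 7.70 in threat and 7.65 and 7.76 in control, and its groups overlapped.

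The products Psmc3ip and Psme3ip1 are no proteasome parts. Psmc3ip, a DNA recombination factor, had 4.97 and 4.73 in threat and 4.16 and 4.17 in control (difference 0.69, SE 0.13, limma adjusted p = 0.00574), and its control level lay below the array medians, where expression cannot be told from background. Its other probe set, as dim, differed by 0.35 (SE 0.15) without a call. Psme3ip1, a protein that binds the Psme3 product, had 8.80 and 8.72 in threat and 8.87 and 8.79 in control and was not called. Without both, 13 of 44 genes rose and 1 fell, and the median difference was 0.09.

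Other genes of the pathway were described from 5 lists, the immunoproteasome among them, and 30 of their 39 genes had a probe set that named no other gene. Of these 30, 4 rose and 3 fell, against 9.4% and 11.7% of all genes and 18.1% and 22.3% of genes with a level between 7 and 12, where most of the 30 lie. Among 11 measured factors that bind the proteasome or carry ubiquitinated proteins to it, 2 rose and 1 fell. Sem1, a small subunit of the lid whose symbol the rule does not reach, had 11.91 and 11.89 in threat, against 11.63 and 11.62 in control (difference 0.27, SE 0.03, limma adjusted p = 0.000273). Uchl5, a deubiquitinase bound to the cap, had 9.37 and 9.46 in threat and 8.95 and 9.14 in control (difference 0.37, SE 0.08, limma adjusted p = 0.00877). Usp14, the other deubiquitinase that binds the cap, had 7.74 and 7.82 in threat and 8.13 and 7.98 in control, a difference of -0.28 that was not called (limma adjusted p = 0.058). Uchl5 lost its call without the variance trend and without either threat pool (limma adjusted p = 0.0624 to 0.15). Usp14 was called lower with dim probe sets left out, with the pool number as a block and without control pool 2 (limma adjusted p = 0.0151 to 0.0449). The shuttle gene Ubqln1 fell by 0.25 (SE 0.06), but the mean of its probe sets differed by -0.08 and their median by 0.02, without a call.

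Of 6 measured genes of the NRF1 pathway and the unfolding machinery that activates it, 0 were called by limma after adjustment, and 3 had an unadjusted p under 0.05. Nfe2l1, which encodes the factor NRF1 that induces proteasome genes, had 7.53 and 7.48 in threat and 7.72 and 7.55 in control (difference -0.14, SE 0.09), and Nfe2l2 differed by -0.19 (SE 0.06, limma adjusted p = 0.0786). Vcp, the ATPase that extracts ubiquitinated proteins, differed by 0.09 (SE 0.04) and its cofactor gene Nploc4 by 0.29 (SE 0.09, limma adjusted p = 0.0516). Of the ubiquitin and E1 enzyme list 1 of 6 genes was measured here, Uba6, which had 8.09 and 8.12 in threat and 8.61 and 8.23 in control and was not called. Of 9 genes of the COP9 signalosome, a complex related in structure to the lid, 2 rose and none fell. Cops5, its metalloprotease subunit and the relative of Psmd14, had 9.73 and 9.65 in threat and 9.45 and 9.34 in control (difference 0.29, SE 0.06, limma adjusted p = 0.00985), and Cops3 rose by 0.24 (SE 0.06), but the mean of its probe sets differed by 0.02 and their median by -0.06, without a call. Without the variance trend none of the 4 rises of the pathway lists was called by limma. At an unadjusted limma p under 0.05, 5 genes of the lists were then higher and 5 lower, against 7 and 10 with the trend. Gps1 and Cops7a differed by -0.22 and -0.24 and were not called.

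Markers of other cells moved with the groups in these bulk samples, where fewer cells of a type and less RNA per cell cannot be told apart. All 5 neutrophil precursor markers rose, and the sum of their linear intensities was 8214 to 8671 in threat, against 444 to 509 in control. All 5 measured proliferation genes rose, with sums of 5292 to 5378 in threat and 1145 to 1267 in control, as did 3 of 4 erythroid genes, with sums of 560 to 593 and 124 to 126. Of the markers of B cells 4 of 4 fell, with sums of 1213 to 1268 in threat and 2631 to 2716 in control. T cell markers fell for 5 of 5 (413 to 422 in threat, 860 to 888 in control), conventional dendritic cell markers for 4 of 4 (1205 to 1293 and 2763 to 2815) and NK cell markers for 2 of 3 (371 in both threat pools, 878 to 900 in control). Red pulp macrophage markers fell for 3 of 4, monocyte markers for 1 of 3 and stromal markers for 1 of 4, with Col3a1 and Cdh5 at or below the array medians in all pools, while 2 of 3 mature neutrophil markers rose and 1 fell. The part of these cells in the rise of proteasome subunits and in the falls of Psme1, Psmb8 and Psmb10 was not tested. The labels name no batch, and batch and group, if linked, cannot be told apart.

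**Figure D4:**
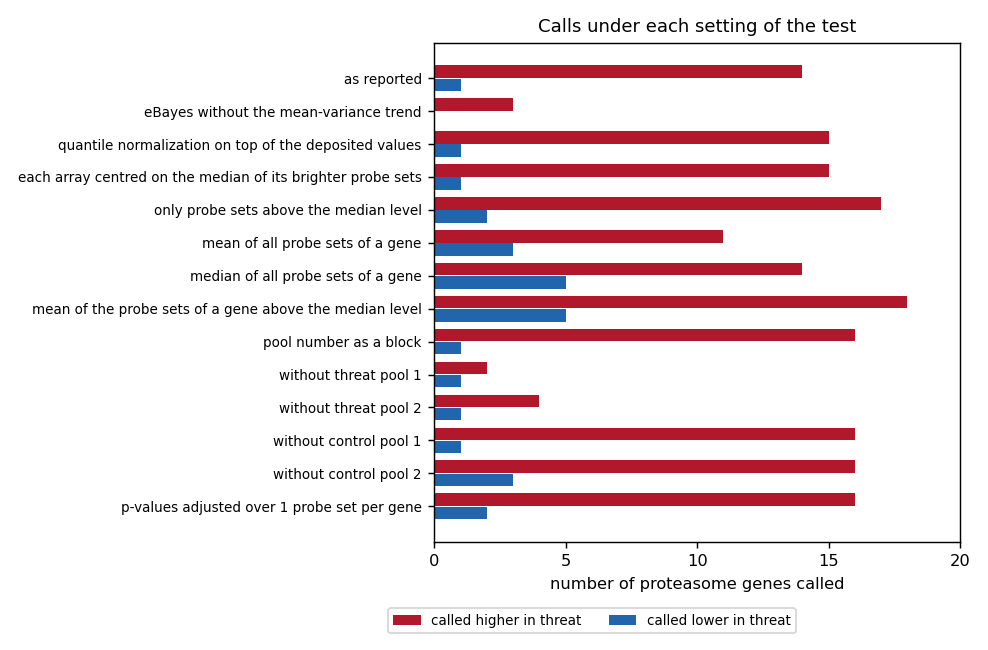
The number of the proteasome genes called higher (red) and lower (blue) in social threat under each setting of the test (horizontal bars, count on the horizontal axis). The bars for rises lie between 11 and 18 except without the variance trend and without either threat pool, where they are 2 to 4.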

How the data were processed

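The authors deposited log2 values for each probe set. RMA was used, without a stated version, per the submitters' processing notes. It subtracts background, equalises the distributions of the arrays and summarises the probes of a set, and it compresses differences of dim probe sets. No further normalization was applied. The precision is limited by the number of arrays.

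Of 45037 probe sets, 34945 had 1 symbol in the platform annotation, 932 had several and 9160 were unnamed here. Social threat minus control was fitted over all probe sets with limma 3.58.1 in R 4.3.3 (lmFit, then eBayes with a mean-variance trend, with residual degrees of freedom of 2 and prior ones of 7.14). All tests are two-sided. P-values of limma were adjusted by Benjamini-Hochberg over all probe sets, with a threshold of 0.05, those of the permutation tests over the 3 ratios, and intervals are 95% intervals on the moderated degrees of freedom. P-values rest on 2 pools per group and do not measure the spread between mice. Those of limma draw more on the spread shared over all probe sets (prior degrees of freedom of 7.14) than on the gene's own pools (residual ones of 2).

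The members, the 5 pathway lists and the 12 marker lists, the CD11b gate genes Itgam and Itgb2 among them (both rose), were chosen with earlier results of these data known. Values of every pool are given, per role, for the called members with the largest rise and fall and for the smallest difference, for Psmb5, Psmb6, Psmb7, Psma8 and Psmb11, and for the 5 members with the widest gap between pools (Psmb11, Psmd9, Psmg3, Psmg4 and Psmc3ip). Other members with pool values, and Psme2, were chosen after their values were seen. Each pathway list gives up to 4 genes, called genes first. Promoters are from RefSeq on GRCm38.p6. Alternatives covered the trend, scaling, dim probe sets, the probe set taken for a gene, the pool number as a block and each pool left out.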

Additional observations from a re-analysis of the deposited data

How the results depend on the processing

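The count of proteasome genes called higher (14) was 15 after quantile normalization or centring on the brighter probe sets, 17 with dim probe sets left out, 11 and 14 with the mean and the median of a gene's probe sets, 18 with the mean of its brighter probe sets, an alternative chosen after seeing the data, and 16 when p-values were adjusted over 1 probe set per gene. It was 3 without the variance trend and 2 to 16 when a pool was left out. The count called lower (1) was 0 by limma without the trend, where 2 members were lower at an unadjusted p under 0.05, 2 without dim probe sets, 3 and 5 with the mean and median of probe sets, 5 with the mean of the brighter ones, 2 when adjusted over 1 probe set per gene and 1 to 3 when a pool was left out, 3 without control pool 2. The median difference (0.0885) was 0.1008 without dim probe sets, 0.0765 and 0.0608 with the mean and median of probe sets and 0.1046 with the mean of the brighter ones, against an SD of 0.0085 between pools of a group, and 0.0945 to 0.0965 when a pool was left out. For the 5 pathway lists the 4 rises became 0 by limma without the trend, with 5 at an unadjusted p under 0.05, and 1 to 5 when a pool was left out, 1 without either threat pool. Their 3 falls became 1 without the trend, 6 without dim probe sets and 2 to 8 when a pool was left out, 8 without control pool 2. The log2 ratios of the catalytic pairs kept their direction under all alternatives run, at 0.42 to 0.49 for Psmb5 to Psmb8, 0.13 to 0.22 for Psmb6 to Psmb9 and 0.57 to 0.63 for Psmb7 to Psmb10. Pools 1 and 2 of the groups share a number only, and the differences between pool 1 and pool 2 correlated at r = 0.052 across probe sets between the groups. With the pool number as a block, 16 members were higher and 1 lower, and 6 genes of the pathway lists were higher and 7 lower. Without the variance trend, 5 genes of the pathway lists were higher and 5 lower at an unadjusted limma p under 0.05. Some differences changed sign, and not only small ones. Psmb1 was 0.0032 after quantile normalization, 0.0547, 0.046 and 0.0173 with the mean, the median and the brighter mean of its probe sets and -0.0645 to 0.0415 when a pool was left out, the highest without control pool 1. Psmd9 was -0.11 and -0.39 with the mean and median of its probe sets, and called lower with the median. Psmf1 was -0.0288 with the median of its probe sets, -0.0037 with the brighter mean and -0.0045 to 0.0975 when a pool was left out, below 0 without threat pool 1 or control pool 1. When a pool was left out Psmb11 was -0.074 to 0.136 and Psmg3 -0.22 to 0.095, each changing sign without threat pool 2 or control pool 1. With the median of probe sets Ubqln1 was 0.019 and Cops3 -0.0578, while both were called in the main fit, at -0.251 and 0.2365. The causes were not tested.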
